A study of Mus musculus with 65 samples.

Results

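Axin2, Sfrp1, Tcf7l2 and Wnt7b are 4 of the 11971 genes in a table of read counts from single cells of the embryonic mouse cortex. They were chosen by name as a target, an inhibitor, an effector and a ligand of the Wnt pathway, and each is described here over all 65 cells. The cells came from C57BL/6J embryos at E13.5, a stage at which cortical progenitors form neurons. Cortical hemispheres of all embryos were pooled after the ganglionic eminences had been taken off, and single cells that excluded propidium iodide, a dye of dead cells, were sorted into a SMARTer kit that makes cDNA along whole transcripts. The labels put all cells in 1 group of neural progenitor cells and name no animal, so that cells are not replicates and no difference between them was tested. Errors are standard deviations (SD) over cells or exact 95% binomial intervals, which cover counting error only. Overlap of such intervals is given as a description and not as a test between groups of cells, which can share members.

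In canonical Wnt signalling a secreted Wnt ligand binds Frizzled and Lrp receptors, beta-catenin escapes degradation by a cytoplasmic complex built on Axin proteins, and beta-catenin then joins TCF/LEF factors at their target genes. In the embryonic cortex, Wnt ligands are made at the medial edge by the cortical hem and also by progenitors and neurons, and the pathway is known for roles in progenitor division, regional patterning and neuronal differentiation. Axin2 is a widely used target gene and itself part of the degradation complex. Sfrp1 is a secreted Frizzled-related protein that binds Wnt ligands, Tcf7l2 is a DNA-binding partner of beta-catenin, and Wnt7b is a secreted ligand.

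Levels are in CPM, the reads of a gene per 1000000 reads of the same cell, and a gene was counted in a cell from 10 CPM. CPM is not scaled by transcript length, so levels are compared between cells for 1 gene and not between genes. Cells were classed by 4 genes at 10 CPM or more. Neurod6, a transcription factor of young excitatory neurons, marked 16 cells. Eomes, of intermediate progenitors, marked 20 cells, and Dlx5, of interneurons and ventral forebrain, marked 11. Sox2, of apical progenitors, marked 22 cells, and 13 cells had none of the 4 genes. The classes overlapped in 10 cells with Neurod6 and Eomes, 3 with Eomes and Sox2, and 4 with Dlx5 and Sox2, and such a cell was counted in both classes. Other markers followed the classes only in part. The ventral gene Dlx1 was counted in 8 of 11 Dlx5 cells and in 9 of all 65. The neuronal tubulin Tubb3 was counted in 16 of 16 Neurod6 cells. It was also counted in 18 of 20 Eomes, 11 of 11 Dlx5 and 16 of 22 Sox2 cells. The radial glia genes Fabp7 and Pax6 were counted in 18 and 14 of 22 Sox2 cells, and in 41 and 29 of all 65. Vim, listed for apical progenitors, was counted in 59 of all 65, and Slc1a3 in 6 of 22 Sox2 cells. The Notch target Hes5 reached 10 CPM in only 3 Sox2 cells. Btg2, listed for intermediate progenitors, was counted in 11 of 20 Eomes and 15 of 22 Sox2 cells.

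The cells had a median of 14609426 reads, from 85338 to 32130629, and the numbering in their titles gives 3 sets, of 31, 13 and 21 cells, whose meaning is not given. The shallowest cell, of set 2, stood apart. With 85338 reads, 1 of its reads was worth 11.7 CPM, and it entered the Eomes class on 1 read and the Sox2 class on 17 reads. It held 257 reads of Tcf7l2, or 3012 CPM, 6 reads of Axin2 and 1 read of Sfrp1, and its 4 measured erythroid markers summed to 5613 CPM. Shares of Eomes and Sox2 cells with Axin2, Sfrp1 and Tcf7l2, and means of Axin2 and Tcf7l2, are given with and without it. Other values include it unless stated.

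**Figure D1:**
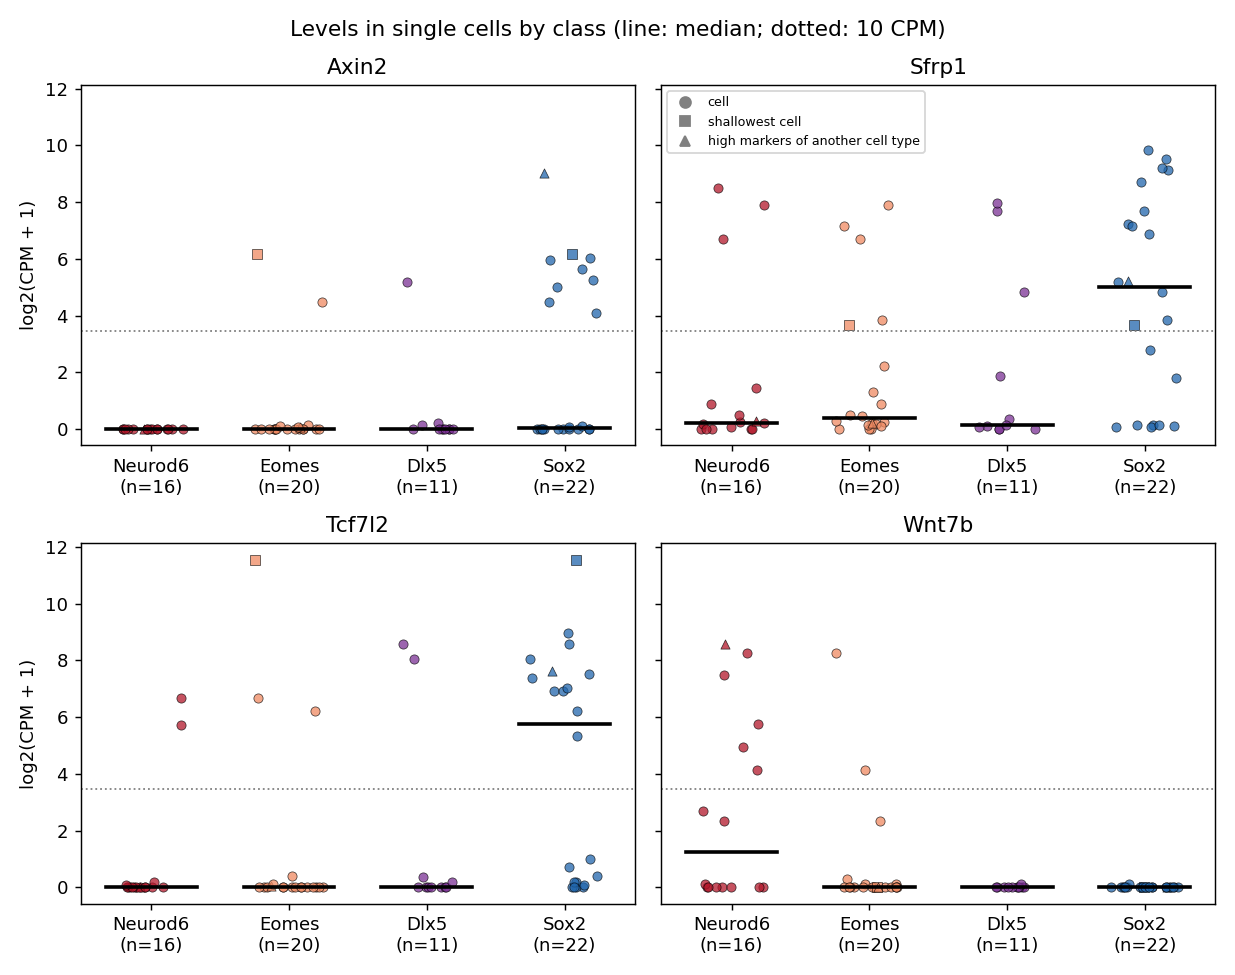
Level of each Wnt pathway gene in every cell, as log2(CPM + 1), by class; a cell of 2 classes is drawn in both, squares are the shallowest cell, triangles are cells with summed markers of cortical hem and choroid, Cajal-Retzius or mural and meningeal cells of 1000 CPM or more, bars are medians and the dotted line is 10 CPM. Axin2 lay at 0 in all 16 Neurod6 cells, and Wnt7b was below 10 CPM in all 22 Sox2 cells.

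Axin2, the target, was a gene of few cells, most of them in the Sox2 class. It was counted in 12 of the 65 cells, and 9 of these 12 had Sox2. Among Neurod6 cells every value was 0. Among Eomes cells the lowest and the median were 0 and the highest was 70.3 CPM, in the shallowest cell. In Dlx5 cells the lowest and the median were also 0 and the highest was 35.8 CPM. The Sox2 cells ran from 0 through a median of 0.022 to a highest of 526 CPM. More than 1 in 2 Sox2 cells therefore had little or no Axin2, and the classes overlapped at 0.

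The share of cells counted with Axin2 was 0 of 16 in the Neurod6 class (interval 0% to 20.6%). It was 2 of 20 in the Eomes class (10%, 1.23% to 31.7%) and 1 of 11 in the Dlx5 class (9.09%, 0.23% to 41.3%). It was 9 of 22 in the Sox2 class (40.9%, 20.7% to 63.6%). Without the shallowest cell it was 8 of 21 Sox2 cells (38.1%, 18.1% to 61.6%), whose interval overlapped that of the Neurod6 cells, and with it the 2 intervals were disjoint by a narrow margin. Those of the Eomes and Dlx5 cells overlapped all others. No read of Axin2 was found among the 209577100 reads of the Neurod6 cells, which allows up to 0.0143 CPM at 3 reads over the class. The Sox2 cells together held 8986 Axin2 reads, and 4035 of these lay in the Sox2 cell with the highest Axin2. With 3 reads allowed in Neurod6 cells, the level over all reads of a class was at least 1745-fold lower there. This bound covers counting error of reads only, not the spread between cells. Without the shallowest cell and the cells with high markers of other types, the bound was 959-fold. Of all genes in the table, 33, or 0.276%, were counted in 0 Neurod6 cells and in at least 9 Sox2 cells. These limits are the counts of Axin2 itself, so it is among the 33, and the share is a description and no test.

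The mean level of Axin2 was 0 CPM in Neurod6 cells, 4.60 ± 16.2 CPM in Eomes cells (SD, n = 20), 3.27 ± 10.8 CPM in Dlx5 cells (SD, n = 11) and 39.8 ± 111 CPM in Sox2 cells (SD, n = 22). In the last 3 classes the SD was larger than the mean. Without the shallowest cell the mean was 1.14 ± 4.90 CPM in Eomes cells (SD, n = 19) and 38.4 ± 114 CPM in Sox2 cells (SD, n = 21). The 9 Sox2 cells with Axin2 were spread over the title sets, with 4 of 9, 2 of 6 and 3 of 7 Sox2 cells in sets 1, 2 and 3. Both Eomes cells with Axin2 also had Sox2, and none of the 10 cells with Neurod6 and Eomes held a read of it. The Dlx5 cell with Axin2 had no Sox2.

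The highest Axin2 cells carried genes of other cell types. The cell at 526 CPM, a Sox2 cell of set 2, had 11115 CPM of Ttr, which encodes a transport protein of the choroid plexus, and its 6 measured hem and choroid markers summed to 11671 CPM. The next, at 167 CPM, had none of the 4 class genes and held 3009 CPM of Col3a1, 2728 CPM of Col1a2 and 1006 CPM of Col1a1, fibrillar collagens of mural and meningeal cells. The other 10 cells with Axin2 lay between 15.9 and 70.3 CPM. Without the shallowest cell and the 6 cells with 1000 CPM or more of such markers, 58 cells remained. Axin2 was then counted in 0 of 15 Neurod6 cells, 1 of 18 Eomes cells, 1 of 11 Dlx5 cells and 7 of 20 Sox2 cells (35%, 15.4% to 59.2%), at a mean of 14 ± 22.2 CPM in the Sox2 cells (SD, n = 20).

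Sfrp1, the inhibitor, was the most widely found of the 4 genes, and it was counted in 23 of 65 cells. It ran from 0 through a median of 0.16 to 365 CPM in Neurod6 cells and from 0 through 0.30 to 236 CPM in Eomes cells. The Dlx5 cells ran from 0 through a median of 0.097 to 249 CPM. The Sox2 cells ran from 0.043 through a median of 31.4 to 917 CPM. High cells were found in every class, and low cells too, so that the classes overlapped over most of their range. All Eomes cells at 10 CPM or more also had Neurod6 or Sox2, and 0 of 7 cells with Eomes alone reached that level.

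Sfrp1 reached 10 CPM in 3 of 16 Neurod6 cells (18.8%, 4.05% to 45.6%), 5 of 20 Eomes cells (25%, 8.66% to 49.1%) and 3 of 11 Dlx5 cells (27.3%, 6.02% to 61%). It did so in 14 of 22 Sox2 cells (63.6%, 40.7% to 82.8%). Without the shallowest cell it did so in 4 of 19 Eomes cells (21.1%, 6.05% to 45.6%) and 13 of 21 Sox2 cells (61.9%, 38.4% to 81.9%). Every Sox2 cell held at least 1 read, and the intervals of the first 3 classes covered each other and ran into that of the Sox2 cells. Mean levels were 44.3 ± 106 CPM in Neurod6 cells (SD, n = 16), 25.7 ± 62.2 CPM in Eomes cells (SD, n = 20) and 44.2 ± 91.8 CPM in Dlx5 cells (SD, n = 11), against 180 ± 277 CPM in Sox2 cells (SD, n = 22). On the scale of log2(mean CPM + 1), the ratios over Sox2 cells were −2.0 for Neurod6, −2.77 for Eomes and −2.0 for Dlx5 cells.

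The difference in Sfrp1 was uneven over the title sets. It was counted in 7 of 9 Sox2 cells of set 1, in 5 of 6 of set 2 and in 2 of 7 of set 3. Without set 1 the Neurod6 and Dlx5 ratios turned to 0.63 and 0.56, with 5 Neurod6, 4 Dlx5 and 13 Sox2 cells left. The direction of Sfrp1 in these 2 comparisons of means therefore rests on set 1. Without set 2, which holds 2 of the 3 Dlx5 cells with Sfrp1, the Dlx5 ratio was −5.62. The Eomes ratio kept its direction in all 14 alternatives, from −6.99 to −0.82.

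The 13 cells without a class gene held high Sfrp1 as well. It was counted in 5 of them, with a mean of 290 ± 424 CPM (SD, n = 13). The highest Sfrp1 cell of all, at 1130 CPM, was 1 of these and held 4701 CPM of Col3a1. The 3 next highest cells without a class gene, at 902, 745 and 738 CPM, held 0.079 CPM or less of the measured mural and meningeal markers.

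Tcf7l2, the effector, was counted in 18 of 65 cells, and 12 of these 18 had Sox2. In Neurod6 cells the lowest and the median were 0 and the highest was 101 CPM. In Eomes cells the lowest and the median were 0 and the highest was 3012 CPM in the shallowest cell, or 101 CPM without it. Dlx5 cells had a lowest and a median of 0 and a highest of 380 CPM. Sox2 cells ran from 0 through a median of 56.1 to 3012 CPM, and to 496 CPM without the shallowest cell. The median was above 0 in the Sox2 class alone.

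The share of cells with Tcf7l2 was 2 of 16 in Neurod6 cells (12.5%, 1.55% to 38.3%), 3 of 20 in Eomes cells (15%, 3.21% to 37.9%) and 2 of 11 in Dlx5 cells (18.2%, 2.28% to 51.8%). It was 12 of 22 in Sox2 cells (54.5%, 32.2% to 75.6%). Without the shallowest cell it was 2 of 19 Eomes cells (10.5%, 1.30% to 33.1%) and 11 of 21 Sox2 cells (52.4%, 29.8% to 74.3%). These intervals overlapped. All Eomes cells with Tcf7l2 also had Neurod6 or Sox2, and it was counted in 0 of 7 cells with Eomes alone. Both Dlx5 cells with Tcf7l2 also had Sox2, at 263 and 380 CPM, and the 7 Dlx5 cells without Sox2 held 3 Tcf7l2 reads in all. The Sox2 share was similar in sets 1, 2 and 3, with 4 of 9, 4 of 6 and 4 of 7 cells.

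The mean of Tcf7l2 was 9.54 ± 27.5 CPM in Neurod6 cells (SD, n = 16), 159 ± 672 CPM in Eomes cells (SD, n = 20), 58.5 ± 133 CPM in Dlx5 cells (SD, n = 11) and 235 ± 635 CPM in Sox2 cells (SD, n = 22). The shallowest cell decided several of these values. Without it the means were 9.17 ± 27.8 CPM in Eomes cells (SD, n = 19) and 103 ± 139 CPM in Sox2 cells (SD, n = 21). The log2 ratio over Sox2 cells became −3.31 in place of −4.49 for Neurod6, −3.36 in place of −0.56 for Eomes and −0.81 in place of −1.99 for Dlx5 cells. With the reads of a class summed, which gives that cell little weight, Tcf7l2 stood at 12.8 CPM in Neurod6, 9.93 CPM in Eomes, 44.8 CPM in Dlx5 and 95.8 CPM in Sox2 cells.

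Tcf7l2 is also known as a gene of the thalamus, and 4 of 6 listed thalamus and habenula markers were measured. Their summed level was 0 to 2121 CPM with a median of 91.7 CPM in the 18 cells with Tcf7l2, and 0 to 2184 CPM with a median of 191 CPM in all 65 cells. Of these markers Lhx2 and Lhx9 are also cortical genes, and Prox1 and Calb2 reached 10 CPM in 5 and 3 cells.

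The upstream sequences of Axin2 and Tcf7l2 show what lies before the start of a target of TCF/LEF factors and of a TCF/LEF gene that was counted mainly in Sox2 cells. They are the 250 bases before each annotated start, from RefSeq on GRCm38.p6, 5′ to 3′ on the plus strand, with 1 window matched for Axin2 and 2 for Tcf7l2. Capitals mark matches on either strand to CTTTG followed by any pair of A and T, letters of TCF/LEF motifs, or to ATTGTT, letters of a Sox motif. In these windows no match overlapped another.
Axin2, chr11:108920099-108920348: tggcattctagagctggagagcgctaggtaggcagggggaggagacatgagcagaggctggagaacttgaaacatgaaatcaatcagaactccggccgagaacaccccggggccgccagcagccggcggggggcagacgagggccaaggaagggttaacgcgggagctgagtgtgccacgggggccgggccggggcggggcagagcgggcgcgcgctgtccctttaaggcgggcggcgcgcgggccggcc
Tcf7l2 first start, chr19:55741560-55741809: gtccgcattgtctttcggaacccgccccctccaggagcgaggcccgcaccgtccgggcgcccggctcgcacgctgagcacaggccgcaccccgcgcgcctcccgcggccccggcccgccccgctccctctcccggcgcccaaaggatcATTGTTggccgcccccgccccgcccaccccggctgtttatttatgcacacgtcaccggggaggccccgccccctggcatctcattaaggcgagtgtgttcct
Tcf7l2 second start, chr19:55895071-55895320: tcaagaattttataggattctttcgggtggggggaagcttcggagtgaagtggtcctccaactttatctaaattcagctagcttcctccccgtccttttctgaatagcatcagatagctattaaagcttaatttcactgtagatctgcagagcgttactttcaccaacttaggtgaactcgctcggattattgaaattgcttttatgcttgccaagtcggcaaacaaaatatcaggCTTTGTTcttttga
The Axin2 window held no match to these letters. The first Tcf7l2 window held ATTGTT 102 to 97 bases before the start, and the second held CTTTGTT 14 to 8 bases before its start. Of 32851 windows of the same length, 14.8% held a TCF/LEF match and 9.42% a Sox match, so that such letters are common and a match is no more than a description.

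Wnt7b, the ligand, showed the opposite arrangement. It was counted in 7 of 65 cells, and 6 of the 7 had Neurod6. Their levels were 382, 305, 177, 52.5, 29.5 and 16.6 CPM. The remaining cell, at 354 CPM, had none of the 4 class genes, but it held 45.4 CPM of Tbr1, a deep-layer neuron factor, and 1337 CPM of Dcx, a microtubule protein of young neurons.

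Wnt7b ran from 0 through a median of 2.07 to 382 CPM in Neurod6 cells. In Eomes cells the lowest and the median were 0 and the highest was 305 CPM. In Dlx5 cells the highest was 0.092 CPM and in Sox2 cells 0.072 CPM, each a single read. The Sox2 and Dlx5 cells thus sat at or next to 0, and the Neurod6 cells overlapped them at the low end, since 7 of the 16 held no Wnt7b read.

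The share with Wnt7b was 6 of 16 in Neurod6 cells (37.5%, 15.2% to 64.6%), 2 of 20 in Eomes cells (10%, 1.23% to 31.7%), 0 of 11 in Dlx5 cells (0% to 28.5%) and 0 of 22 in Sox2 cells (0% to 15.4%). The Neurod6 and Sox2 intervals overlapped narrowly. Both Eomes cells with Wnt7b also had Neurod6 and were of set 1. Of the 6 Neurod6 cells without Eomes, 4 had Wnt7b, as did 2 of the 10 with Eomes and 0 of the 10 Eomes cells without Neurod6. Mean levels were 60.8 ± 120 CPM in Neurod6 cells (SD, n = 16) and 16.3 ± 68.0 CPM in Eomes cells (SD, n = 20).

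The Neurod6 cells held 11162 Wnt7b reads in 209577100 reads and the Sox2 cells 1 read in 359798854. The ratio of these levels, 19163, has a counting interval from 3439 to 756955 because of that 1 read. The spread between cells is not covered by this interval. In the table, 40 genes, or 0.334%, were counted in 0 Sox2 cells and in at least 6 Neurod6 cells. These limits are the counts of Wnt7b itself, so the share is again no test. By set, Neurod6 cells with Wnt7b were 4 of 11, 1 of 2 and 1 of 3. The highest Wnt7b cell had 7134 CPM of Reln, the secreted protein of Cajal-Retzius neurons. Without it, the other 5 cells with such markers and the shallowest cell, Wnt7b was counted in 5 of 15 Neurod6 cells at a mean of 39.3 ± 86.6 CPM (SD, n = 15), and in 0 of 20 Sox2 cells.

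**Figure D2:**
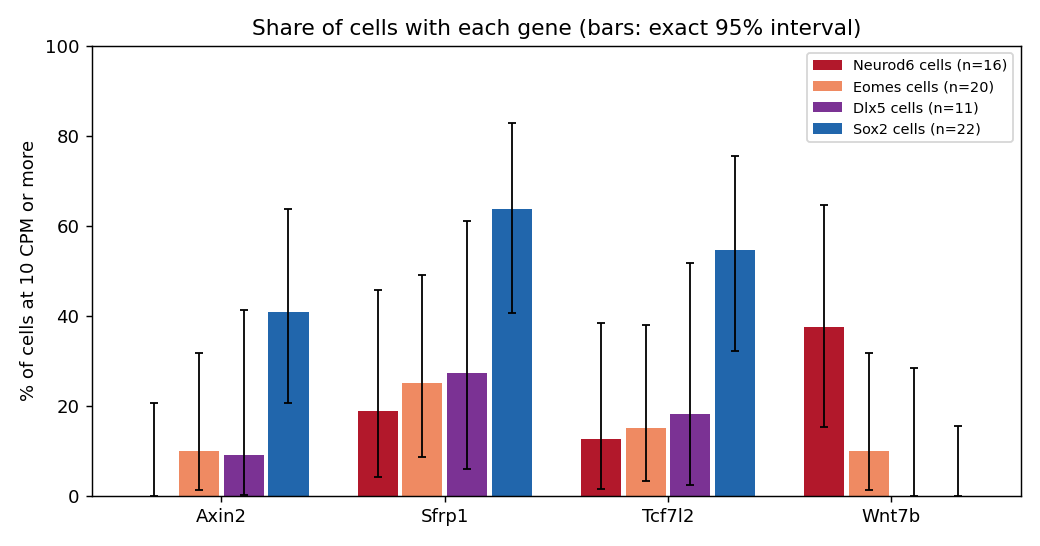
Percentage of cells at 10 CPM or more for each gene in Neurod6, Eomes, Dlx5 and Sox2 cells; bars with whiskers give exact 95% intervals, and cells of 2 classes are counted in both. Axin2, Sfrp1 and Tcf7l2 were most frequent in Sox2 cells, at 40.9%, 63.6% and 54.5%, and Wnt7b in Neurod6 cells, at 37.5%.

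The class means can be set beside those of the 9666 genes with a mean of 5 CPM or more. Between Neurod6 and Sox2 cells, Axin2, Sfrp1 and Tcf7l2 were lower by 2-fold or more, as were 33% of all genes, and Wnt7b was higher, as were 23.4% of all genes. Between Eomes and Sox2 cells, Axin2 and Sfrp1 were lower by 2-fold or more, as were 25.9% of genes, and Wnt7b was higher, as were 20.9%. Without set 1 the ratio was −0.82 for Sfrp1 and 0.034 for Wnt7b, both under 2-fold, and without the shallowest cell Tcf7l2 was also lower by 2-fold or more. With cells of a single class only, the Wnt7b ratio was 0.043. Between Dlx5 and Sox2 cells, Axin2, Sfrp1 and Tcf7l2 were lower, Tcf7l2 by under 2-fold without the shallowest cell, against 31.5% of genes lower and 18.3% higher. A 2-fold difference of means was therefore common among genes of these few cells. The median log2 ratio of all genes was −0.21, −0.08 and −0.17 for Neurod6, Eomes and Dlx5 over Sox2 cells.

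Taken by cell, 4 of 16 Neurod6 cells, 5 of 20 Eomes cells and 5 of 11 Dlx5 cells had at least 1 of Axin2, Sfrp1 and Tcf7l2, and 20 of 22 Sox2 cells did (90.9%, 70.8% to 98.9%). So did 8 of the 13 cells without a class gene (61.5%, 31.6% to 86.1%) and 34 of all 65 cells (52.3%). Each of these 3 genes was most frequent in Sox2 cells of the same data. A high Sox2 share for the 3 together is therefore no further evidence. Of the 22 Sox2 cells, 10 had 2 or more of the 3 genes. All 3 were found together in 5 cells, each with Sox2. Without the shallowest cell, 19 of 21 Sox2 cells had at least 1 of the 3 genes (90.5%, 69.6% to 98.8%), 9 had 2 or more and 4 had all 3. Only 2 cells combined Wnt7b with another of the 4 genes, 1 with Sfrp1 and 1 with Tcf7l2, and both had Neurod6. No cell had Wnt7b with Axin2. Of the 65 cells, 26 had none of the 4 genes. By class, these were 8 of 16 Neurod6, 13 of 20 Eomes, 6 of 11 Dlx5 and 2 of 22 Sox2 cells.

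**Figure D3:**
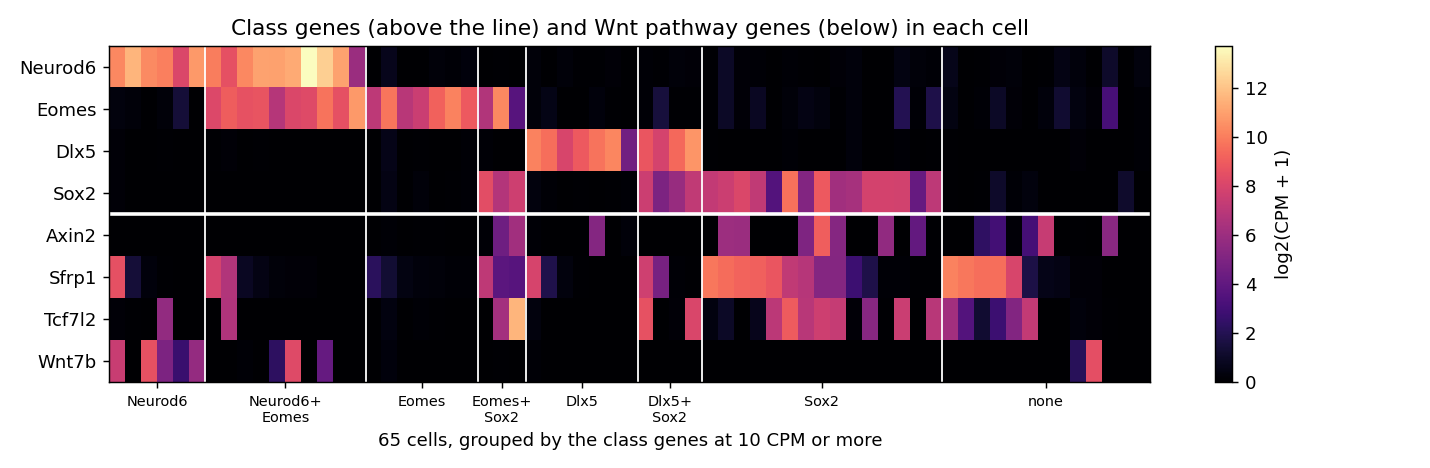
Levels as log2(CPM + 1) in each of the 65 cells, in columns grouped by their class genes, with Neurod6, Eomes, Dlx5 and Sox2 above the white line and Axin2, Sfrp1, Tcf7l2 and Wnt7b below it. Wnt7b is bright at the left, in Neurod6 cells, and the other 3 genes toward the right, in different subsets of the Sox2 cells and in cells without a class gene.

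Sfrp1 and Tcf7l2 went together over all cells but not among Sox2 cells. Their Spearman correlation of log2(CPM + 1) over the 65 cells was 0.462 (Pearson 0.326), with 0.535, 0.415 and 0.186 within sets 1, 2 and 3, and 12 cells had both. Within the 22 Sox2 cells it was −0.033. Axin2 had a correlation of 0.261 with Tcf7l2 and of 0.153 with Sfrp1 over all cells, and of −0.007 and 0.066 within Sox2 cells. Wnt7b had −0.175 with Axin2, −0.180 with Sfrp1 and −0.128 with Tcf7l2. All cells come from 1 pool and fall into 3 title sets, and Tcf7l2 had a correlation of 0.425 with the number of genes detected in a cell. The part of detection depth in these values was not tested.

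Among Sox2 cells, Tcf7l2 was counted more often in cells with markers of division, though the groups without them were small. Top2a, a topoisomerase of dividing cells, was counted in 17 Sox2 cells, and 11 of these had Tcf7l2, as did 1 of the 5 without Top2a. Axin2 was counted in 6 of the 17 and 3 of the 5, and Sfrp1 in 12 of the 17 and 2 of the 5. With Mki67, another gene of dividing cells, Tcf7l2 was counted in 10 of 15 Sox2 cells, and without it in 2 of 7. Axin2 was counted in 5 of these 15 and 4 of these 7, and Sfrp1 in 9 of 15 and 5 of 7. The shallowest cell, with 1441 CPM of Top2a and 434 CPM of Mki67, is in the counts of Tcf7l2, Axin2 and Sfrp1 with each marker. The correlation of Tcf7l2 with Mki67 within Sox2 cells was 0.528, or 0.485 without the shallowest cell. With Top2a it was 0.413, or 0.325 without that cell. Of the 14 patterning genes described, Sp8, a factor of rostral cortex, had the lowest correlation with Axin2 in Sox2 cells, −0.508 (−0.440 without the shallowest cell). Pax6 had a correlation of 0.383 with Sfrp1 in these cells, or 0.370 without the shallowest cell.

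The genes most like each of the 4 were taken by Spearman correlation over the 65 cells, out of 8376 genes that averaged at least 10 CPM, keeping genes positive in every title set. For Tcf7l2 they were led by the cell-cycle genes Mki67 (0.645) and Ccnb2 (0.609), followed by Pola2, Zfp36l1, Stt3a and Efcab11. For Sfrp1 they were Mcm4 (0.615), Qk, Ticrr, Mcm3 (0.531), Dtl and Nr2e1. Mcm3 and Mcm4 encode subunits of the replicative helicase, and Nr2e1 a nuclear receptor of neural progenitors. For Wnt7b they were Dner (0.647), Dusp4, Rtn1, Nacad, the semaphorin co-receptor gene Plxna4 (0.590) and Tbr1 (0.577). For Axin2 the values were lower, led by Emb (0.474), Rps18, Hmgn3 and Ttc23 (0.443). Emb was counted in only 3 cells, 2 of them with Axin2, whereas the ribosomal protein gene Rps18 was counted in 64 cells, all 12 Axin2 cells among them. Of the 8376 genes, 49.9% had a positive value with Axin2, 69.5% with Sfrp1, 64.2% with Tcf7l2 and 50.8% with Wnt7b.

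**Figure D4:**
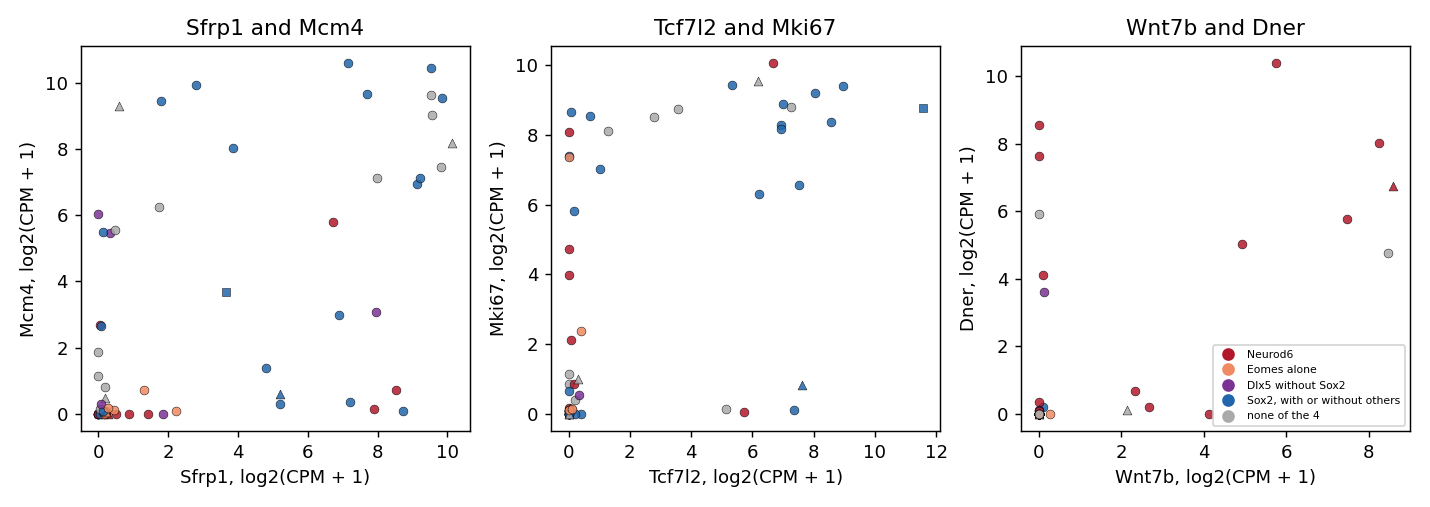
Sfrp1 against Mcm4, Tcf7l2 against Mki67 and Wnt7b against Dner in each of the 65 cells, both axes as log2(CPM + 1) and colours by class, with squares and triangles as in the plot of levels by class. Many cells lie on the axes, and 14, 14 and 6 cells had both genes of a pair at 10 CPM or more.

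Within the Neurod6 class, neuronal genes were set side by side for the 6 cells with Wnt7b and the 10 without it. Plxna4 was counted in 6 of 6 cells with Wnt7b and 4 of 10 without, at medians of 349 and 0.52 CPM. Bcl11b, a deep-layer factor, was counted in 6 of 6 and 6 of 10, at medians of 182 and 17.4 CPM. Eomes was counted in 2 of 6 and 8 of 10, at medians of 0.23 and 334 CPM. Fezf2, another deep-layer factor, was counted in 1 of 6 and 4 of 10, at medians of 0.066 and 5.61 CPM. Tbr1 was counted in 5 of 6 and 9 of 10, at medians of 339 and 72.5 CPM. Lhx2 had medians of 138 and 436 CPM, Neurod1 of 436 and 589 CPM, and Dcx of 1012 and 1020 CPM. Plxna4 and Tbr1 had been picked for their likeness to Wnt7b in the same cells, so their values here are no further evidence.

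Of a list of 105 Wnt pathway genes, 80 were measured and 66 had a mean of 5 CPM or more. Between Neurod6 and Sox2 cells, 26 of the 66 were 2-fold or more lower (39.4%) and 17 higher (25.8%), with a median log2 ratio of −0.11. The shares over all genes were 33% and 23.4% and the median −0.21, so that the list as a whole lay near the background. Between Eomes and Sox2 cells 19 were lower (28.8%) and 19 higher (28.8%), against 25.9% and 20.9% of all genes. Between Dlx5 and Sox2 cells 25 were lower (37.9%) and 12 higher (18.2%), against 31.5% and 18.3% of all genes. Counts by role follow, without a test between roles, and a gene with 2 roles was counted in both.

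Among the 7 ligands and secretion factors compared, Wnt7b was the only one higher in Neurod6 than in Sox2 cells. Wnt2b, Porcn and Wnt4, measured but under a mean of 5 CPM, were also higher, with log2 ratios of 1.35, 0.90 and 0.36. Each of them was counted in 1 Neurod6 cell. Wnt3, Wnt5a, Wnt5b, Wnt7a, Wnt8b and Wls, the carrier that brings Wnt proteins to the surface, were each counted in 0 of 16 Neurod6 cells and in 1 to 4 of 22 Sox2 cells. Wnt7a, the closest relative of Wnt7b, was counted in 0 Neurod6 cells, 0 Eomes cells, 3 Dlx5 cells and 3 Sox2 cells. Wnt8b averaged 80.8 ± 221 CPM and Wls 157 ± 447 CPM in Sox2 cells (SD, n = 22 each), each from 4 cells.

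Of 11 receptor and R-spondin genes, 5 were lower (45.5%) and 3 higher (27.3%), against 33% and 23.4% of all genes. The Frizzled receptor Fzd1 averaged 62.4 ± 163 CPM in Neurod6 cells (SD, n = 16) and 4.05 ± 14.7 CPM in Sox2 cells (SD, n = 22). Fzd2 averaged 4.72 ± 10.4 CPM in Neurod6 cells (SD, n = 16) and 43.7 ± 80.8 CPM in Sox2 cells (SD, n = 22). Fzd3 was counted in 15 of 16 and 19 of 22 cells of these classes and differed by under 2-fold.

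Of 11 inhibitors, 6 were lower in Neurod6 cells (54.5%) and none was higher by 2-fold, against 33% and 23.4% of all genes. The 6 were Sfrp1, its relatives Sfrp2 and Frzb, and Wif1, Dkk3 and Apcdd1. Sfrp2 was counted in 0 of 16 Neurod6 cells, 1 of 20 Eomes cells, 3 of 11 Dlx5 cells and 8 of 22 Sox2 cells. Wif1 and Dkk3 were counted in 0 Neurod6 and 2 Sox2 cells each, and Frzb and Apcdd1 in 0 and 1.

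In the cytoplasm 8 of 18 genes were higher in Neurod6 cells (44.4%, against 23.4% of all genes), and 8 differed by under 2-fold. Only Axin2 and Nkd1 were lower (11.1%, against 33% of all genes). Axin1, the constitutive relative of Axin2, averaged 37.5 ± 101 CPM in Neurod6 cells (SD, n = 16) and 6.46 ± 20.5 CPM in Sox2 cells (SD, n = 22), and it was counted in 3 and 2 cells. The scaffold gene Apc2 averaged 229 ± 275 CPM in Neurod6 cells (SD, n = 16) and 10.1 ± 26.8 CPM in Sox2 cells (SD, n = 22). Gsk3b, a kinase that marks beta-catenin for degradation, averaged 1625 ± 1114 CPM in Neurod6 cells (SD, n = 16) and 606 ± 554 CPM in Sox2 cells (SD, n = 22). Ctnnb1, the beta-catenin gene, was counted in 15 of 16 Neurod6 and 21 of 22 Sox2 cells, at means of 547 ± 467 and 663 ± 661 CPM (SD, n = 16 and n = 22).

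Of 13 nuclear genes, 4 were lower in Neurod6 cells, the TCF/LEF genes Tcf7l2, Lef1 and Tcf7l1 and the coactivator Ep300. Pygo2, Tle1 and Crebbp were higher. These shares, 30.8% and 23.1%, lay near the 33% and 23.4% of all genes. Lef1 was counted in 3 of 16 Neurod6 cells, 7 of 20 Eomes cells, 3 of 11 Dlx5 cells and 7 of 22 Sox2 cells. Tcf7l1 was counted in 2 Neurod6, 0 Eomes, 2 Dlx5 and 5 Sox2 cells, and Tcf7, the fourth gene of that family, in none of the 65. Against 33% of all genes, 7 of 11 known targets were lower in Neurod6 cells (63.6%). Besides Axin2 they included Tnfrsf19, counted in 1 of 16 Neurod6 and 13 of 22 Sox2 cells, and the cyclins Ccnd1, in 4 of 16 and 15 of 22 cells, and Ccnd2, in 13 of 16 and 20 of 22. Id2 and Myc were higher (18.2%, against 23.4% of all genes), Myc being counted in 4 of 16 Neurod6 and 0 of 22 Sox2 cells.

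**Figure D5:**
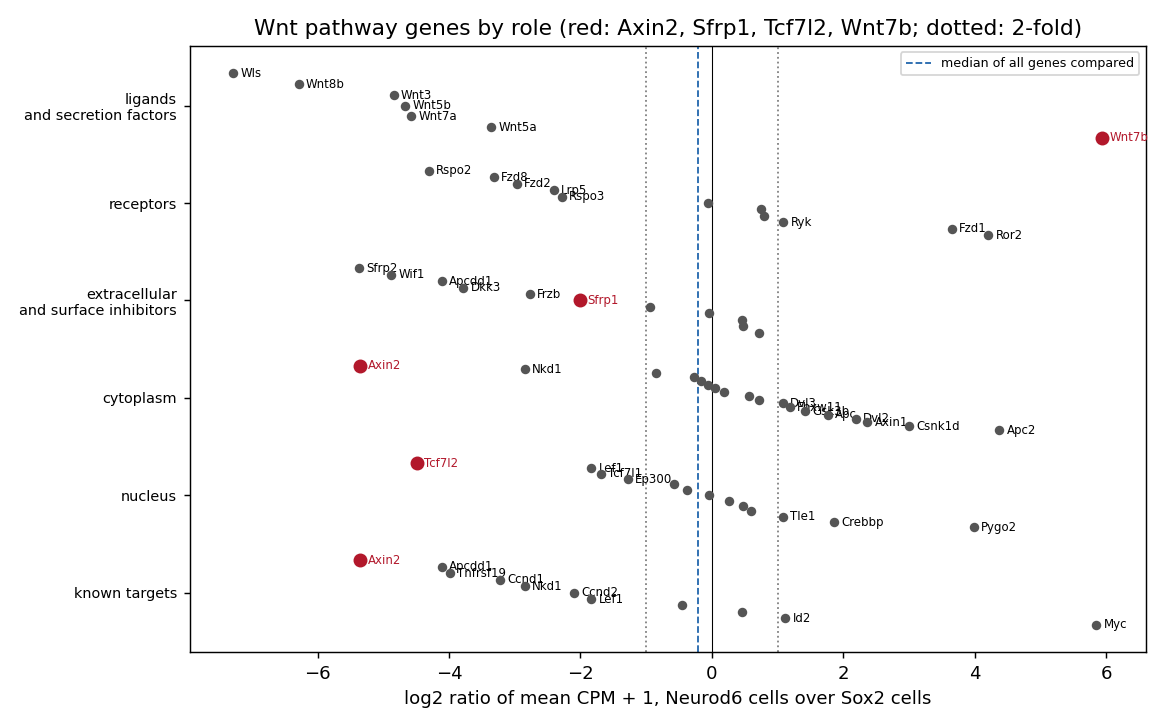
Log2 ratio of mean CPM + 1 in Neurod6 cells over Sox2 cells for the 66 Wnt pathway genes compared, in rows by role; a gene with 2 roles is drawn in both, genes at 2-fold or more are named, and ratios of genes with no reads in 1 class depend on the 1 CPM added. Wnt7b alone of the ligands compared lies right of 0, no inhibitor lies beyond the right 2-fold line, and 8 cytoplasmic genes do. Genes under a mean of 5 CPM are not drawn, and a gene of few cells can pass this filter through 1 class alone.

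Markers of other cells were checked over the whole lists. Of the hem and choroid list 6 of 7 genes were measured, and at least 1 reached 10 CPM in 1 of 16 Neurod6, 5 of 20 Eomes, 0 of 11 Dlx5 and 6 of 22 Sox2 cells. Their summed level was 0 to 26 CPM in Neurod6 cells, 0 to 1068 CPM in Eomes cells, 0 to 2.46 CPM in Dlx5 cells and 0 to 11671 CPM in Sox2 cells. The 4 measured mural and meningeal genes of 6 summed to at most 51.3 CPM in Neurod6 cells, 276 CPM in Eomes cells and 143 CPM in both Dlx5 and Sox2 cells. The 5 Cajal-Retzius genes summed to at most 7205 CPM in Neurod6, 577 CPM in Eomes, 50.4 CPM in Dlx5 and 327 CPM in Sox2 cells. Erythroid genes, 4 of 5 measured, had a median sum of 36.7 CPM in Neurod6 cells, 197 CPM in Eomes cells, 122 CPM in Dlx5 cells and 462 CPM in Sox2 cells, and their part in the class differences was not tested. The 3 measured microglial genes of 5 reached 10 CPM in 0 cells. None of the 5 listed endothelial genes was among the genes measured, so endothelial markers could not be checked.

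Strand is not kept by the library kit. On GRCm38 the exons of Axin2 share 209 bases with the antisense gene Gm11670 and those of Wnt7b share 324 bases with the antisense gene AU022754, so that reads there cannot be assigned with certainty.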

How the data were processed

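The deposited values are raw counts of reads, 11971 genes by 65 cells, not normalized. Tools named per the submitters' processing notes are TopHat2 and HTSeq, and the genome build mm9. Their versions and the gene models counted are not given in the sources used here. Reads carry no molecular identifiers, so intervals and floors of 3 reads cover counting error only.

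CPM was computed from each cell's total, with Python 3.11.15. Genes were counted in a cell at 10 CPM. Class ratios are log2 of (mean CPM + 1) for the 9666 genes of mean CPM 5 or more, and shares carry exact Clopper-Pearson 95% intervals. No test was made, because all cells come from 1 pool. The title sets were treated as possible batches. Size factors of edgeR 4.0.16 (TMM) and DESeq2 1.42.0 served as scaling alternatives only. Other alternatives left out each title set or cells under 1000000 reads, moved thresholds, used exclusive classes, thinned cells to 1000000 reads or replaced the mean.

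Named genes are the 4 genes, the class genes, the 6 genes most correlated with each, the Wnt list, patterning genes, Top2a, Mki67 and markers. Some genes that this rule names are not reported here. Genes and lists were chosen with earlier results of these data known. The steps were tested on simulated counts. Sequences came from RefSeq tables of GRCm38.p6, and no coordinates of mm9 were used.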

Additional observations from a re-analysis of the deposited data

How the results depend on the processing

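No paired analysis was possible because the labels give 1 group of cells and no replicate numbers to pair. Values are log2 ratios over Sox2 cells unless stated, and the cause of a shift was not tested except where fewer cells or genes remain. The bound for a class ratio was the pooled SD of log2(CPM + 1) over the cells of both classes. Of 168 alternative values of the 12 class ratios, 148 shifted by less than that bound, 18 moved and 2 reversed. A value within it can still be far from the reported one, as for Axin2 in Dlx5 cells without title set 1, at −5.74 against −3.26. Without title set 1, Sfrp1 reversed to 0.63 for Neurod6 and 0.56 for Dlx5 cells, and Wnt7b was 0.034 for Eomes cells. Without set 2, Sfrp1 was −5.62 for Dlx5 cells. With exclusive classes, with or without the shallowest cell, Axin2, Sfrp1, Tcf7l2 and Wnt7b were −5.70, −6.99, −6.52 and 0.043 for Eomes cells, and Tcf7l2 was −6.55 for Dlx5 cells. Tcf7l2 for Eomes cells, reported at −0.56, was −4.76 with class genes at 50 CPM and −4.52 with DESeq2 size factors. It was −4.04 with TMM factors, which counted as within the bound. Differences of mean log2(CPM + 1) were −2.36 for Axin2 and 2.76 for Wnt7b in Neurod6 cells and 0.76 for Wnt7b in Eomes cells, where leaving out the highest cell of each class gave 1.07. Axin2, Tcf7l2 and Wnt7b kept their direction at 2-fold or more for Neurod6 cells in all 14 alternatives. DESeq2 scaling moved the median ratio of all genes for Neurod6 cells to −0.73, against −0.21. With a filter at mean CPM 20, 40 listed Wnt genes were left, of which 11 were lower for Neurod6, 7 lower and 9 higher for Eomes and 13 lower for Dlx5 cells. Correlations within set 3 were −0.071 for Axin2 and Sfrp1, −0.042 for Axin2 and Tcf7l2, 0.186 for Sfrp1 and Tcf7l2 and 0.187 for Tcf7l2 and Wnt7b, and −0.041 for Axin2 and Wnt7b within set 2. Alternatives without the shallowest cell or the cells with markers of other types were added after the data were seen. Of 256 alternative shares of cells 21 moved out of the exact 95% interval of the reported share. At 50 CPM Axin2 was counted in 0 of 11 Dlx5 cells and 4 of 22 Sox2 cells (18.2%), and at 1 read Sfrp1 was counted in 68.8% of Neurod6, 85% of Eomes, 72.7% of Dlx5 and 100% of Sox2 cells and Tcf7l2 in 81.8% of Sox2 cells. With exclusive classes each of the 4 genes was counted in 0 of 7 Eomes cells, Tcf7l2 in 0 of 7 Dlx5 cells and Wnt7b in 4 of 6 Neurod6 cells. Without set 1 the share was 0 of 4 Dlx5 cells for Axin2 and 0 of 9 Eomes cells for Wnt7b. The few cells in each class limit every share.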
